A study of Arabidopsis thaliana with 6 samples.

Results

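Kinesins are motor proteins that walk along microtubules, and 59 Arabidopsis thaliana loci were listed as kinesin genes. A locus was counted as measured where a probe set (the short oligonucleotides by which the array reads a transcript) is annotated to that gene alone, and the probe set with the highest mean signal stood for the gene. Of the 59 loci, 40 were measured through 41 probe sets, among 13355 named genes on the array. The study profiled whole seedlings of the Col-0 accession on expression arrays, with 3 samples of the mutant cdkf;1-2, which carries a T-DNA insertion in the kinase gene CDKF;1, and 3 samples of wild type. All 6 samples were 7 days old, were grown at 22 °C in days of 8 h light and 16 h dark on medium with 0.5% sucrose, and were taken 4 h into the light. The labels call the samples biological replicates, count the age once from germination and once from sowing, and do not give the number of seedlings in a sample. If the samples shared a culture, the p-values measure only the spread between them.

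In dividing plant cells, kinesins build and balance the spindle, and others carry vesicles and hold the microtubule ends together in the phragmoplast, the array that lays down the new cell wall. Plants lack cytoplasmic dynein and have many kinesin-14 motors, a family that moves towards the minus ends of microtubules. In cells that are not dividing, kinesins act in organelle movement, delivery of wall material and cell shape, as in trichomes and fibres. CDKF;1, found in plants, phosphorylates and so activates other cyclin-dependent kinases, and the series title describes it as acting on Ser-7 of the RNA polymerase II tail.

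The deposited intensities had medians from 64.4 to 115 in the mutant arrays and from 85.4 to 104 in the wild type arrays, so the arrays were put on a common scale by quantile normalization. On the log2 scale the arrays correlated across probe sets at 0.972 to 0.987 within the mutant, at 0.982 to 0.987 within wild type and at 0.952 to 0.96 between genotypes. CDKF;1 itself was not analysed here, so its transcript gives no check of the labels. The 25S ribosomal RNA control was 99.5 ± 12.2 times its array's median in the mutant and 48.7 ± 4.42 times in wild type (SD, n = 3 each). The array carries 6 sets of 3' and 5' control probe sets for actin, GAPDH and ubiquitin, which read RNA integrity by the ratio of 3' to 5' signal. These ratios were taken from the quantile-normalized signals, and the 25S values from the deposited signals. What the normalization did to the ratios was not tested. All mutant ratios lay below all wild type ratios for 2 sets, the first of ubiquitin (2.21 ± 0.226 in the mutant and 2.82 ± 0.295 in wild type) and the first of GAPDH (1.01 ± 0.0462 in the mutant and 1.21 ± 0.0557 in wild type; SD, n = 3 each). They lay above them for 2 sets, the second of actin (2.7 ± 0.112 in the mutant and 2.35 ± 0.261 in wild type) and the second of GAPDH (1.07 ± 0.0597 in the mutant and 0.927 ± 0.0512 in wild type; SD, n = 3 each). The genotypes overlapped for the other 2, the second of ubiquitin and the first of actin. The first actin set had the highest ratio in every array (8.74 ± 0.944 in the mutant and 9.51 ± 0.507 in wild type, SD, n = 3 each). The summed signal of 4 measured shoot genes of 10 listed was 26100 to 27300 in the mutant and 33500 to 34000 in wild type. Of the 4, PRK and PSAN fell (log2 -0.72 and -0.59), while RCA and LHCB4.1 overlapped between genotypes and did not pass (log2 -0.17 and -0.15). The summed signal of 3 measured root genes of 9 listed was 57.8 to 130 in the mutant and 314 to 375 in wild type. These were EXPA7, EXPA18 and AT3G49960. SHR and SCR were not measured, so the sum need not stand for the whole root. Leaf transcripts were present in both genotypes. Of the root genes EXPA18 had signals of 51.8, 86.3 and 65.4 in the mutant, where AT3G49960 had only 1.55, 3.7 and 10.8. EXPA7 had 4.41, 39.8 and 53.7 there. The 3 measured pollen genes of 5 listed summed to 12.2 to 38.9 in the mutant and 16.6 to 42.3 in wild type. In whole seedlings, fewer cells of a type and less RNA per cell cannot be told apart, and the part of these tissue and control differences in the kinesin values was not tested.

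Most kinesin transcripts did not differ beyond the spread between samples. Of the 40 measured genes 0 rose, 2 fell and 38 did not pass (limma, adjusted p under 0.05 over all probe sets), and at an unadjusted p under 0.05 the counts were the same, 0 higher and 2 lower. Over all named genes 13.1% passed, 6.57% higher and 6.52% lower in the mutant, against 5% of the measured kinesins. The genes that fell, AT2G21380 and AT5G06670, both belong to the kinesin-7 family, which had 12 of its 14 listed loci measured. They made 16.7% of those 12, near the 13.1% of named genes that passed. The median difference over the 40 kinesins was -0.15 on the log2(signal + 16) scale, against 0 over all named genes, and 30 of the 40 lay below 0, or 75%, against 50.1% of named genes. Scaling on the hybridisation spikes moved the median of all probe sets to 0.17, and the kinesin median was then 0, still the lower of these medians. On that scale 20 of 40 kinesins lay below 0, and the share of all named genes below 0 was not computed. With the spikes 0 kinesins passed, where 9.59% of all probe sets did. The members and lists were chosen with earlier results known, so these counts carry no test of the family as a whole.

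**Figure D1:**
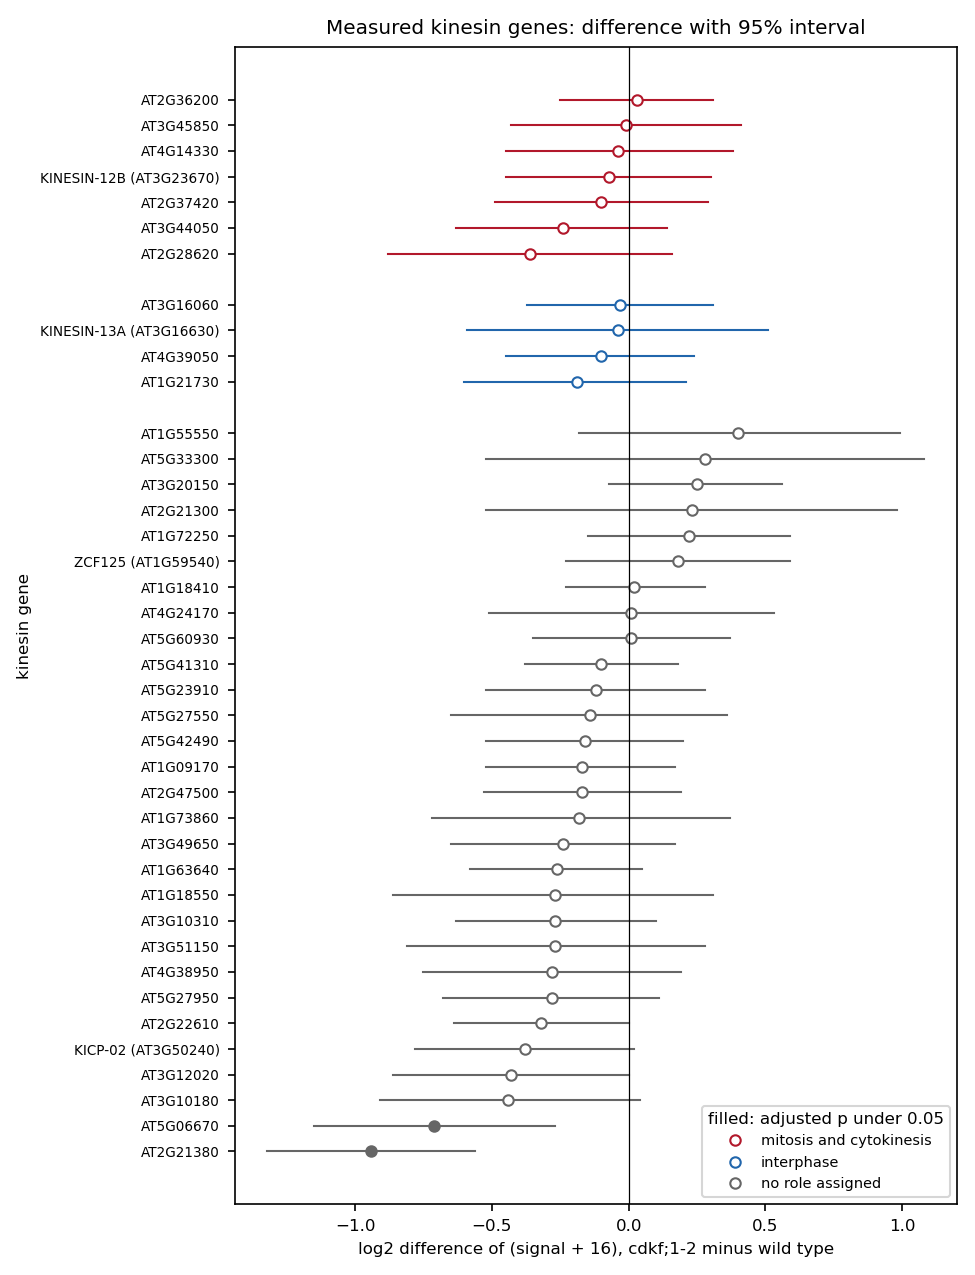
Log2 difference of (signal + 16), cdkf;1-2 minus wild type, for each of the 40 measured kinesin genes (points) with its unadjusted 95% interval from limma (lines), 3 samples per genotype, coloured by role. The 7 mitosis and cytokinesis kinesins lie between -0.36 and 0.03 and the 4 interphase kinesins between -0.19 and -0.03, and the filled points are AT5G06670 and AT2G21380, the only kinesins past the threshold.

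Most kinesin probe sets were dim. Of the 40 genes, 24 lay among the 40% dimmest probe sets, where the added 16 shrinks a difference. Among the 16 brighter kinesins 1 passed when the dim probe sets were left out, or 6.25%, against 26.5% of the probe sets kept. A difference of at least 0.5 in either direction was found for 2 of the 40 kinesins, or 5%, against 20.3% of named genes. For 37 of the 40 the 95% interval of the difference lay inside a 2-fold change of (signal + 16) either way, and for 3 it reached beyond. On these limits, a change of under 2-fold in (signal + 16) could go without a call, and a larger one in a dim gene could be hidden by the added constant.

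Of the 13 kinesins assigned to mitosis and cytokinesis, 7 were measured, and 0 of them passed in either direction. Over all named genes 13.1% passed, and 7 genes are too few to tell 0 calls from that share. The roles used here follow general knowledge of the plant kinesin families, because the annotation gives most of these loci no name. Their median difference was -0.07, with a range of -0.36 to 0.03, and mutant and wild type signals overlapped for all 7, while 31.5% of all named genes had groups that did not overlap. HIK and TES, the kinesins that activate the cytokinetic kinase cascade, the phragmoplast-orienting kinesins POK1 and POK2, and the spindle kinesins ATK1 and ATK5 were not analysed here.

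All 4 kinesin-5 genes were measured. Kinesin-5 motors slide antiparallel microtubules apart and so keep the spindle poles separate. AT2G36200 had normalized signals of 69.9, 65.1 and 62.4 in mutant samples 1 to 3, against 64, 58.5 and 69.9 in wild type samples 1 to 3, a log2 difference of 0.03 (SE 0.12, 95% interval -0.25 to 0.31). AT3G45850 had signals of 165, 105 and 107 in the mutant, against 133, 113 and 126 in wild type (log2 -0.01, SE 0.18). In both genes the lowest and the highest mutant values enclosed or met most wild type values, and mutant sample 1 was the highest of its genotype. AT2G37420 was dim, with signals of 15.5, 23.8 and 18.2 in the mutant and 20.7, 16.1 and 28.9 in wild type (log2 -0.1, SE 0.17). AT2G28620 had the lowest difference of the mitotic genes, with signals of 22.9, 33.9 and 48.5 in the mutant, against 63.5, 38.2 and 45.1 in wild type. Its log2 difference of -0.36 (SE 0.22, 95% interval -0.88 to 0.16, limma adjusted p = 0.342) did not pass, and the highest mutant sample exceeded 2 of the 3 wild type samples.

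The phragmoplast motors did not pass either. KINESIN-12B (AT3G23670), which holds the plus ends of microtubules at the phragmoplast midline, had signals of 26.5, 20.1 and 20.4 in the mutant, against 29.5, 27.4 and 17 in wild type (log2 -0.07, SE 0.16). Another kinesin-12, AT3G44050, had signals of 21.8, 16.4 and 24.8 in the mutant, against 29.3, 34.6 and 20.2 in wild type (log2 -0.24, SE 0.17, limma adjusted p = 0.382). In each of these genes wild type sample 3 fell among the mutant values or below them. The kinesin-10 gene AT4G14330, a motor of vesicles in the phragmoplast, had signals of 51, 42.2 and 41.1 in the mutant, against 54.4, 54.5 and 32.6 in wild type (log2 -0.04, SE 0.18). Wild type sample 3 was here the lowest of all 6 samples. Without that sample the median of the 7 genes was -0.22, and none of the 7 passed.

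Of the 11 interphase kinesins 4 were measured, too few to tell 0 calls from the 13.1% of named genes that passed. Of these 4 genes 0 passed. Their median difference was also -0.07, with a range of -0.19 to -0.03, and the genotypes overlapped for all 4. KINESIN-13A (AT3G16630), of a family that takes microtubule ends apart, is known for its part in trichome branching and on Golgi stacks. Its signals were 592, 354 and 351 in the mutant, against 533, 412 and 365 in wild type (log2 -0.04, SE 0.24, 95% interval -0.59 to 0.51). The other kinesin-13 gene, AT3G16060, had signals of 262, 199 and 240 in the mutant, against 265, 236 and 214 in wild type (log2 -0.03, SE 0.15). Sample 1 was the highest of each genotype in both genes, and the means of the genotypes lay within 1 SD of each other. The kinesin-7 gene AT4G39050 had signals of 249, 214 and 174 in the mutant, against 226, 222 and 232 in wild type (log2 -0.1, SE 0.15). AT1G21730, a further kinesin-7 gene, had signals of 40.2, 55.3 and 42.4 in the mutant, against 68.3, 55.6 and 42 in wild type (log2 -0.19, SE 0.17). Its mutant samples all lay below the middle wild type sample and overlapped the lowest. FRA1, a kinesin-4 of wall material delivery, the chloroplast movement motors KAC1 and KAC2, the trichome kinesin ZWI, the root hair kinesin MRH2, its relative ARK2, and KP1 were not analysed here.

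**Figure D2:**
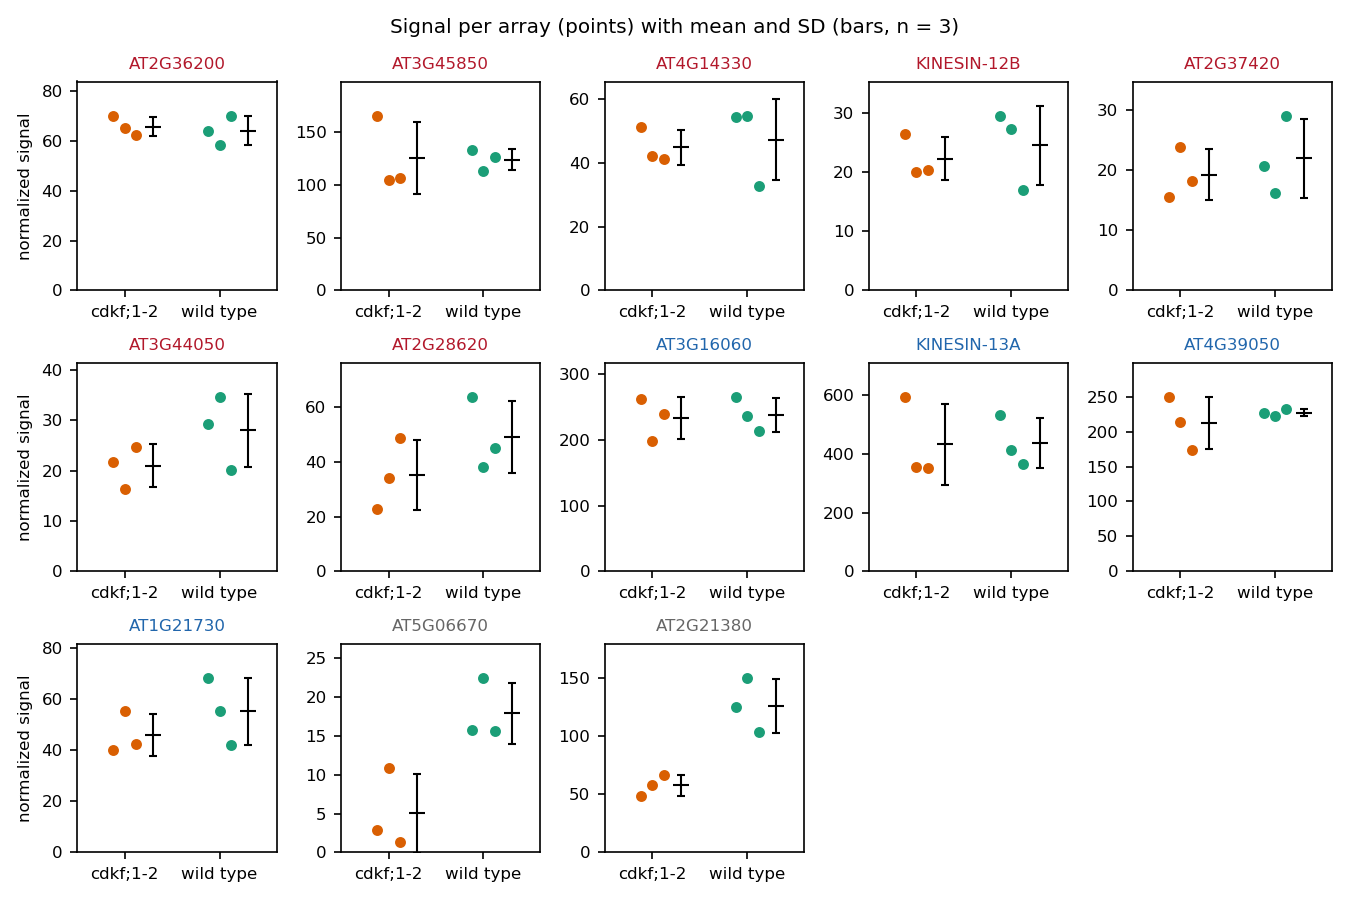
Quantile-normalized signal (vertical axes, from 0) of the 7 mitosis and cytokinesis kinesins (red titles), the 4 interphase kinesins (blue titles) and the 2 kinesins that fell (grey titles), with cdkf;1-2 left of wild type. Points are single arrays and bars the mean and SD of 3. The genotypes overlap in every red and blue panel, while all mutant points lie below all wild type points for AT5G06670 and AT2G21380.

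The 7 measured mitosis and cytokinesis kinesins and the 4 measured interphase kinesins thus had the same median difference, -0.07. This depends on how the roles were assigned. The 29 measured kinesins without an assigned role had a median of -0.17 and held the 2 genes that fell. For each sample, the median deviation of the 7 division genes from their wild type means was 0.08, -0.16 and -0.13 in the mutant and 0.09, -0.1 and -0.07 in wild type, and that of the 4 interphase genes was 0.13, -0.16 and -0.28 in the mutant and 0.2, -0.02 and -0.19 in wild type. In both role groups sample 1 was the highest of each genotype, and the spread within a genotype was wider than the step between genotypes. With the spikes as scale the medians were 0.08 for the division genes and 0.17 for the interphase genes, beside 0.17 for all probe sets.

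Among the 29 measured kinesins without an assigned role 2 fell and 0 rose, and differences ranged from -0.94 to 0.4. AT2G21380, a kinesin-7, had normalized signals of 48.7, 58.2 and 66.5 in the mutant, against 125, 150 and 104 in wild type. Every mutant sample lay well below every wild type sample. The mean signal was 57.8 ± 8.93 in the mutant and 126 ± 22.8 in wild type (SD, n = 3 each), 2.19-fold lower in the mutant. On the tested log2(signal + 16) scale, where the added 16 shrinks the step, the difference was -0.94, or 1.92-fold lower (SE 0.16, 95% interval -1.32 to -0.56, limma adjusted p = 0.01). The call held with each sample left out in turn (log2 -0.82 to -1.07), and it ended on the deposited signals (log2 -1.01, limma adjusted p = 0.162, where 1.44% of probe sets passed) and with spike scaling (log2 -0.74, limma adjusted p = 0.0641). AT4G39050, of the same family, had a difference of -0.1 in the same samples. The fall of AT2G21380 stood beside the lower sums of 4 shoot genes and 3 root genes given above, whose part in it was not tested.

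AT5G06670, also a kinesin-7, had signals of 2.85, 10.8 and 1.4 in the mutant, against 15.7, 22.4 and 15.6 in wild type. The groups did not overlap, but every mutant value and 2 of the 3 wild type values lay under the added 16. It was 1.64-fold lower on the log2(signal + 16) scale (log2 -0.71, SE 0.19, limma adjusted p = 0.0466). The call ended in 10 of the 15 alternatives that kept the gene. It ended on the deposited signals (log2 -0.73, limma adjusted p = 0.193), with spike scaling (log2 -0.6, limma adjusted p = 0.105) and with a trended and robust prior (log2 -0.71, limma adjusted p = 0.0532). It ended with a pseudocount of 1 (log2 -1.96, limma adjusted p = 0.0933) or 64 (log2 -0.25, limma adjusted p = 0.0841). It also ended without mutant sample 1 (log2 -0.66, limma adjusted p = 0.085), without mutant sample 3 (log2 -0.57, limma adjusted p = 0.133) and without wild type sample 1, 2 or 3 (limma adjusted p = 0.102, 0.155 and 0.096).

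The kinesin-7 family as a whole had a median difference of -0.23, with 9 of 12 measured genes below 0. The share was the same in the kinesin-14 family, at 9 of 12, and over all measured kinesins, at 30 of 40 or 75%, against 50.1% of named genes. AT3G12020 had signals of 63.6, 43.3 and 53.6 in the mutant, against 71, 99.5 and 63.5 in wild type (log2 -0.43, SE 0.18, limma adjusted p = 0.171). Mutant sample 1 met the lowest wild type sample. AT3G10180 was the member with 2 probe sets. The brighter had signals of 17.2, 18.3 and 19.7 in the mutant, against 45.8, 19.5 and 29.8 in wild type (log2 -0.44, SE 0.20, limma adjusted p = 0.201), and the dimmer, at 2.4 to 4.2 in the mutant and 2.2 to 3.6 in wild type, gave a difference of 0.03. All signals of the dimmer probe set lay far under the added 16, so its difference was held near 0 and is no check of the brighter one. AT4G38950 and AT3G51150 had differences of -0.28 and -0.27, AT2G21300 and ZCF125 (AT1G59540) of 0.23 and 0.18, and none of them passed. For AT2G21300 mutant sample 1, at 117, stood above the other mutant samples at 46.1 and 41, and without it the difference was -0.17. Without the same sample ZCF125 had a difference of 0.02. AT4G24170 and AT5G42490 had signals under 16 in all 6 samples.

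The kinesin-14 family, with 12 of 21 listed loci measured, had 0 calls, where 13.1% of named genes passed, and a median of -0.17. AT1G63640 had signals of 110, 105 and 92.5 in the mutant, against 142, 111 and 125 in wild type, and AT2G22610 had 28.6, 24.4 and 36.4 in the mutant, against 41.7, 37.6 and 43.4 in wild type. In both genes all mutant samples lay below all wild type samples, yet the differences of -0.26 (SE 0.13, limma adjusted p = 0.248) and -0.32 (SE 0.14, limma adjusted p = 0.172) did not pass. With the genes that fell they made 4 of 40 kinesins whose groups did not overlap with the mutant below, or 10%, against 16.3% of named genes, and 0 of 40 lay above, against 15.1%. AT1G55550 had the highest difference of all measured kinesins, 0.4 (SE 0.25, 95% interval -0.18 to 0.99, limma adjusted p = 0.339). Its signals were 117, 83.3 and 58.7 in the mutant, against 76.9, 62 and 42.8 in wild type, with the lowest mutant sample inside the wild type range. AT1G72250 had a difference of 0.22 and the other 6 kinesin-14 genes with signals over 16 in some sample had differences from -0.28 to -0.14. AT1G18410 and AT5G41310 stayed under 5 in every sample.

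The remaining families gave 0 calls, each from few genes, where 13.1% of named genes passed. KICP-02 (AT3G50240), a kinesin-4 related to FRA1, had signals of 97.3, 66.6 and 59.4 in the mutant, against 99.1, 107 and 93.7 in wild type (log2 -0.38, SE 0.17, limma adjusted p = 0.194). Only mutant sample 1 reached the wild type range. The kinesin-4 genes AT5G60930 and AT5G33300 had differences of 0.01 (SE 0.15) and 0.28 (SE 0.34). For AT5G33300 mutant sample 1, at 111, stood far above all others, and the other mutant samples, at 30 and 43.1, did not exceed the highest wild type value of 43.6, and without mutant sample 1 the difference was -0.15. Both kinesin-8 genes, of a family that limits microtubule length in animals and yeast, had negative differences that did not pass, -0.24 (SE 0.18) for AT3G49650 and -0.27 (SE 0.25) for AT1G18550. AT1G18550 had signals of 1.65, 3.64 and 3.82 in the mutant, against 2.84, 18.9 and 2.45 in wild type. All but wild type sample 2 lay far under the added 16, and without that sample the difference was 0.03. The kinesin-12 gene AT3G20150 had signals of 32.3, 43.2 and 41.1 in the mutant, against 34.3, 28.2 and 28.1 in wild type (log2 0.25, SE 0.13, limma adjusted p = 0.278). Mutant sample 1 lay inside the wild type range, and the other mutant samples lay above it. AT5G23910, whose family was not assigned here, had a difference of -0.12 (SE 0.17).

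**Figure D3:**
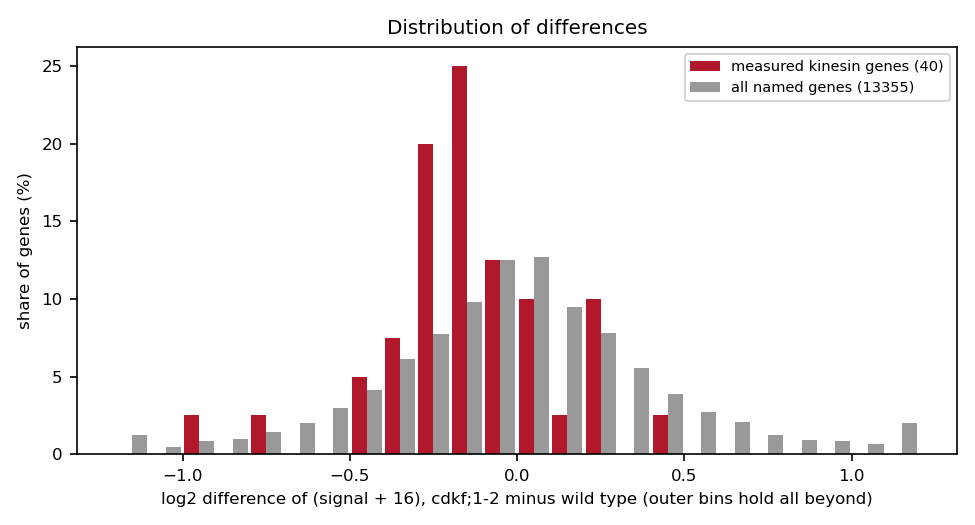
Share of genes (vertical axis, percent) in bins of 0.1 of the log2 difference of (signal + 16), cdkf;1-2 minus wild type, for the 40 measured kinesins (red) and all 13355 named genes (grey), with the outer bins holding everything beyond. The tallest kinesin bins run from -0.3 to -0.1 and hold 20% and 25% of the kinesins, against 7.74% and 9.8% of named genes, and 38 of the 40 kinesins lie within 0.5 of 0.

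Mutant sample 1 stood apart in these genes. It was the highest of the 3 mutant samples for 27 of the 40 kinesins, or 67.5%, against 40.3% of named genes, and its deposited median was the lowest of the 6 arrays. The sample was singled out by these same genes, so lower kinesin differences without it follow in part from that choice. Without mutant sample 1 the kinesin median was -0.21, against -0.02 over all probe sets, and 35 of 40 kinesins lay below 0. The share of all named genes below 0 in that setting was not computed. In it 3 kinesins fell, against a background of 18.1% of probe sets called. These were AT2G21380 (log2 -0.87, limma adjusted p = 0.019), KICP-02 (AT3G50240; log2 -0.56, limma adjusted p = 0.0272) and AT4G38950 (log2 -0.51, limma adjusted p = 0.0464). The medians of the mitosis and cytokinesis kinesins and of the interphase kinesins were then -0.16 and -0.17, again close to each other.

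The wider cell division and microtubule machinery was sampled thinly. Over all named genes 13.1% passed, and lists with so few measured genes cannot be told from that share by their calls. Of 28 cyclins and mitotic regulators only the 3 Aurora kinase genes were measured, which encode kinases that act on the spindle, the chromosomes and the forming cell plate, and 0 passed. AUR1 had signals of 233, 267 and 248 in the mutant, against 183, 188 and 193 in wild type. All mutant samples lay above all wild type samples, at a difference of 0.38 (SE 0.11) that did not pass (limma adjusted p = 0.0705). AUR1 (AT4G32830) rose in 2 of 17 alternatives, with a pseudocount of 64 (log2 0.31, limma adjusted p = 0.0255) and without the 60% dimmest probe sets (log2 0.38, limma adjusted p = 0.0426). AUR2 and AUR3 had differences of -0.27 (SE 0.17) and -0.05 (SE 0.15).

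Of 19 spindle and phragmoplast partners 3 were measured, 1 fell and 0 rose. TON1B, which is needed with its near-identical neighbour TON1A for the preprophase band that marks the division plane, and for ordered cortical microtubules, had signals of 62.2, 66 and 43.9 in the mutant, against 116, 151 and 167 in wild type. The groups lay far apart, and the mean signal was 57.4 ± 11.8 in the mutant and 145 ± 26.3 in wild type (SD, n = 3 each), 2.52-fold lower in the mutant. On the log2(signal + 16) scale the difference was -1.13 (SE 0.18, limma adjusted p = 0.00776). This call held under every alternative in which the gene was kept, with differences from -0.78 to -1.32. Signal from TON1A on the same oligonucleotides was not tested. KEULE, a regulator of cell plate vesicle fusion, and TIO, a kinase of the phragmoplast that binds kinesins, had differences of 0.01 (SE 0.17) and -0.13 (SE 0.14).

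Of 27 tubulins and microtubule-associated proteins 9 were measured, 0 passed, and their median was -0.05. TUA1, an alpha-tubulin, had signals of 306, 241 and 243 in the mutant, against 393, 338 and 348 in wild type, with no overlap (log2 -0.43, SE 0.14, limma adjusted p = 0.0851). TUA1 (AT1G64740) fell in 3 of 17 alternatives, when mutant sample 1 was dropped (log2 -0.54, limma adjusted p = 0.0314) and when the dimmest 40% or 60% of probe sets were dropped (log2 -0.43, limma adjusted p = 0.05, just under the threshold before rounding, and 0.0438). The other tubulins, TUA6, TUB1, TUB5, TUB6, TUB7 and TUB9, had differences from -0.2 to 0.09, the growth regulator SPR1 had 0.04 and GCP2, of the complex that nucleates microtubules, had 0.2. Among partners of interphase kinesins, 2 of 5 were measured and 0 passed. AN, which shapes cells through the cytoskeleton and binds the trichome kinesin ZWI, had signals of 348, 348 and 319 in the mutant, against 284, 213 and 216 in wild type (log2 0.49, SE 0.14, limma adjusted p = 0.0624). Its groups did not overlap, and AN (AT1G01510) rose in 6 of 17 alternatives. These were median centring (log2 0.54, limma adjusted p = 0.0416), a pseudocount of 64 (log2 0.42, limma adjusted p = 0.04), leaving out the 40% or 60% dimmest probe sets (limma adjusted p = 0.0324 and 0.0284), a trended and robust prior (limma adjusted p = 0.0498) and leaving out wild type sample 1 (log2 0.63, limma adjusted p = 0.0424). In the other 11 the limma adjusted p reached 0.531. KIC, a calcium-binding partner of the same kinesin, had a difference of 0.24 (SE 0.28).

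**Figure D4:**
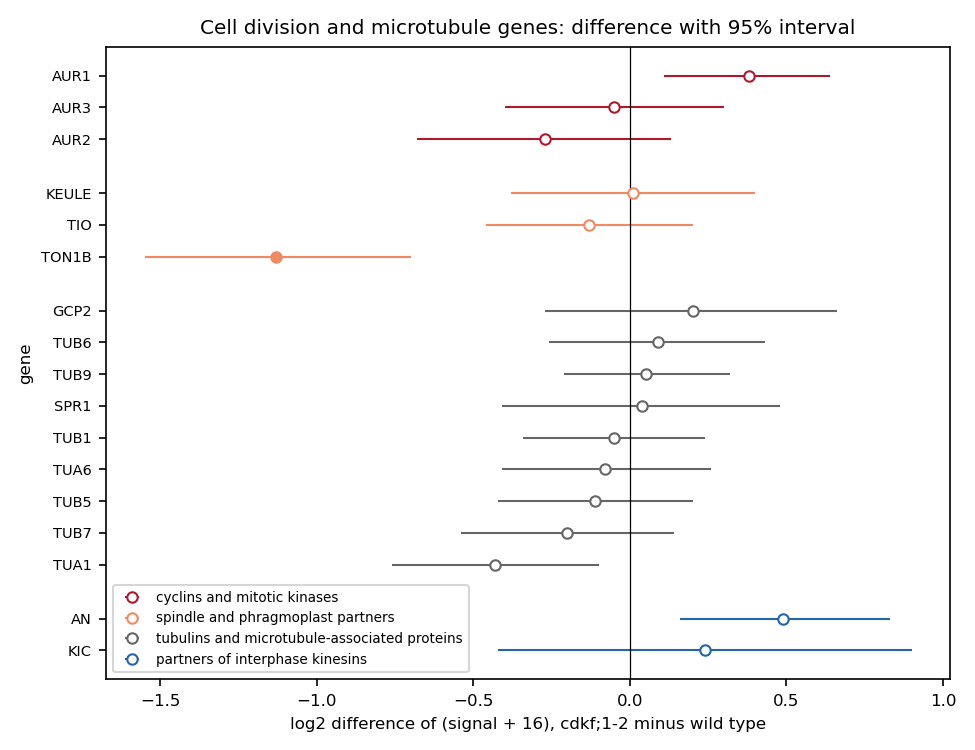
Log2 difference of (signal + 16), cdkf;1-2 minus wild type, with its unadjusted 95% interval from limma, for the 17 measured genes of cell division, microtubules and interphase kinesin partners, 3 samples per genotype. TON1B, at -1.13, is the only filled point, meaning past the threshold, and the intervals of AUR1, TUA1 and AN leave out 0 although these genes did not pass after adjustment.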

How the data were processed

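The authors deposited a linear signal intensity for each of 22810 probe sets in each of 6 arrays. The software was GCOS, per the submitters' processing notes, with version and scaling not given in the sources used here. Quantile normalization used every probe set, and values were analysed as log2(signal + 16). After 64 control probe sets were dropped, limma 3.58.1 in R 4.3.3 was fitted to 22746 (genotype only, two-sided, Benjamini-Hochberg over all probe sets, threshold 0.05, 4 residual degrees of freedom per probe set). Errors of differences are standard errors. The number of arrays limits the precision. Genes were named through the array annotation and the TAIR10.1 RefSeq table. A single gene was given for 13513 probe sets, several for 503 and none for 8730. The text names all measured members of both role lists, other members past the threshold or at the ends of the range, and partner genes past the threshold. Members named beyond these were chosen after their values were seen. Members and lists were chosen with earlier results of these data known. The fit was tested on simulated data with changes put only into probe sets brighter than the median. That test does not cover dim probe sets, where most kinesins lie. Replicate numbers were not used to pair the samples.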

Additional observations from a re-analysis of the deposited data

How the results depend on the processing

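Quantile normalization gave 3267 called probe sets, 0 kinesins that rose and 2 that fell. Under all 17 alternatives 0 kinesins rose. On the deposited signals 328 probe sets were called and 0 kinesins fell. With spike scaling 2181 probe sets were called, 80.4% of them higher against 48.3% with quantile normalization, 0 kinesins fell, and the medians of mitosis and cytokinesis and of interphase kinesins became 0.08 and 0.17. With median centring 57.3% of calls were higher. A pseudocount of 1 gave 2122 calls and 1 kinesin that fell, and a pseudocount of 64 also gave 1. Leaving out the 40% dimmest probe sets kept 16 kinesins, of which 1 fell. Leaving out the 60% dimmest kept 4, of which 0 fell, and no mitosis and cytokinesis kinesin was left to give a median. A trended and robust prior left 1. Leaving out each sample in turn gave 1496 to 4107 called probe sets and 1 to 3 kinesins that fell, with medians of -0.22 to 0.01 for mitosis and cytokinesis and -0.17 to -0.01 for interphase kinesins. The cause of these shifts was not tested. Samples of the same replicate number correlated in their deviations at 0.3, 0.01 and 0.15. The main fit did not take the number as a pairing, and whether samples of a number belong together was not tested. With the number as a replicate block 3382 probe sets were called and 2 kinesins fell. The highest kinesin, AT1G55550 (log2 0.4), then had a limma adjusted p of 0.0764, against 0.339 in the main fit. Of the 40 kinesins, 17 changed sign in at least 1 alternative, none of them while past the threshold.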
